A study of Homo sapiens with 3 samples.

Results

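At 3866 places in the genome of LNCaP cells, a listed region of the kinase subunit CK2α lay on one of RNA polymerase II (Pol II). It did so for Pol II from cells given a CK2 inhibitor and for Pol II from cells given its vehicle. These places are 3866 of the 13382 regions in the CK2α list, 28.9% of them (95% interval 28.1 to 29.7%). They were selected on the overlaps of the deposited lists, as the CK2α regions that share at least 1 bp with a region of the Pol II list with TBBz and at least 1 bp with a region of the Pol II list with DMSO, and they are called members here. Of the other CK2α regions, 950 overlapped Pol II with TBBz only, 1063 overlapped Pol II with DMSO only and 7503 overlapped neither list.

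CK2 is a serine/threonine kinase that is active without a specific trigger; its catalytic subunits α and α′ join regulatory β subunits. It phosphorylates many nuclear proteins, among them factors that act with Pol II while genes are read. Pol II makes the messenger RNAs of the cell and often collects just after the start of a gene before it moves on into the gene body, so that its sharpest ChIP signal tends to lie near start sites. The members are thus places where a kinase subunit and the polymerase were recovered from the same stretch of DNA, and they do not show that both sat there in the same cell at the same time.

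The samples were 3 ChIP-seq libraries (sequencing of the DNA recovered with an antibody to a protein) from LNCaP, an androgen-responsive line from human prostate carcinoma, at passages 40 to 45. One used an antibody to CK2α, in cells given DHT (dihydrotestosterone, the natural ligand of the androgen receptor) at 100 nM. The treatment label gives 2.5 hours of DHT for this library and the protocol gives 90 min. The others used an antibody to Pol II, in cells given 25 μM of the CK2 inhibitor TBBz, a benzimidazole that carries bromine atoms, or DMSO, its vehicle, labelled as 25 μM. TBBz or DMSO was present for 2.5 hours, and 100 nM DHT was added for the last 1.5 hours. All cells came from growth medium with 10% serum and spent 3 days in medium with 5% charcoal-stripped serum before DHT, so no library shows cells without the hormone. The CK2α library was made without inhibitor, so whether CK2α stayed at the members with TBBz is not known from these data.

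The lists held 24782 Pol II regions with TBBz and 21819 with DMSO, from 22345614 and 15466579 tags, and the CK2α library held 19021404 tags. The regions held 1.65% of the CK2α tags, 12.6% of the tags of Pol II with TBBz and 6.79% of those with DMSO. The source name of both Pol II libraries mentions TBBz, and they are told apart by their treatment labels. With 1 library per group there is no spread between replicates and no test between treatments. Intervals are exact 95% intervals, binomial for shares and from order statistics for medians, and cover counting error only. Because overlap chose the members, overlaps and distances within them are descriptions. Positions are in hg19. Regions were not assigned to genes here.

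At the members the Pol II centres of both treatments lay closer to each other than to the CK2α centre. The centre of the CK2α region lay a median of 86 bp from the Pol II centre with TBBz (interval 83 to 89 bp, quartiles 38 and 133 bp) and 84 bp from it with DMSO (81 to 86 bp, quartiles 35 and 133 bp). The median distance between the Pol II centres was 16 bp (15 to 17 bp, quartiles 6 and 36 bp). In 57.6% of members the Pol II centres were within 20 bp of each other, and in 82.4% within 50 bp. The rule sets an upper limit of 200 bp for the distance from CK2α to either centre, and the regions are 201 bp wide, so sites where Pol II lay farther from CK2α in either treatment are not among the members.

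The distances from CK2α are given here for both treatments side by side; the rule used them with the same limit for each, so nothing is read from their balance about TBBz. The Pol II centre was farther in 1802 members with TBBz than with DMSO, closer in 1903 and equally far in 161. The median difference of the distances, TBBz minus DMSO, was 0 bp (interval −1 to 0 bp, quartiles −16 and 14 bp). In 2342 members, 60.6%, the distance differed by 20 bp or less. In 452 members, 11.7%, the CK2α centre stood between the Pol II centres, and in the others it stood outside them or level with one. The plot of Pol II centres around CK2α shows most points along the diagonal.

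**Figure D1:**
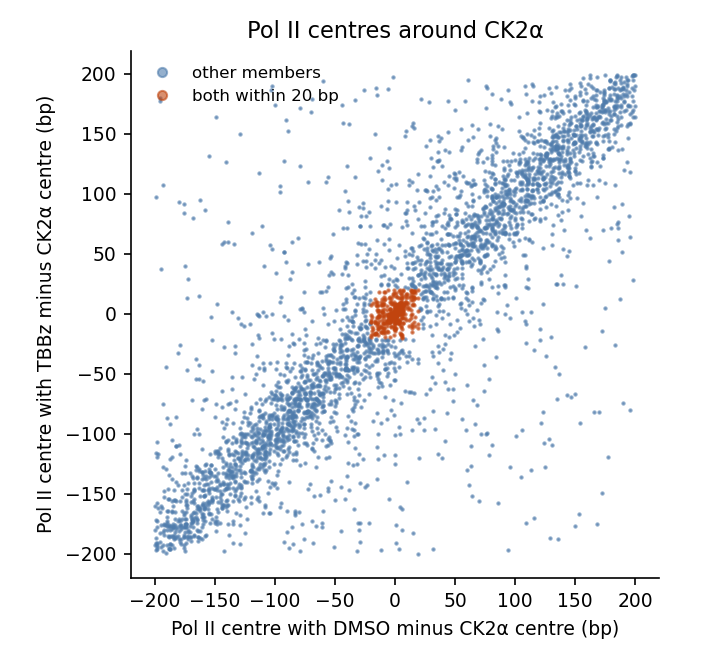
Position of the Pol II centre with TBBz (vertical, bp) against its position with DMSO (horizontal, bp), both relative to the CK2α centre, 1 point per member (3866). Most points lie along the diagonal, and the 461 points in the middle are members with both Pol II centres within 20 bp of CK2α.

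Both sides along the chromosome were about equally frequent. The Pol II centre had the higher coordinate in 1882 members and the lower in 1892 with TBBz, and the higher in 1862 and the lower in 1919 with DMSO. These sides are those of the reference sequence, and the direction of transcription did not enter.

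The distances were not spread evenly, and the step from 0 to 9 bp stood out. In 433 members the CK2α centre lay within 0 to 9 bp of the Pol II centre with TBBz and in 448 within 0 to 9 bp of that with DMSO. From 20 bp to 149 bp each step of 10 bp held between 173 and 237 members with TBBz and between 160 and 231 with DMSO, with no clear peak. The excess at 0 to 9 bp came largely from members at which all 3 centres fell together. In 461 members, 11.9% (10.9 to 13.0%), both Pol II centres were within 20 bp of the CK2α centre, and these are called coincident members. This limit was set after the distances were seen. The step from 10 to 19 bp held 211 members with TBBz and 220 with DMSO, no more than some later steps. Of these, 113 and 104 were coincident, so the class also takes in members from a step without excess.

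**Figure D2:**
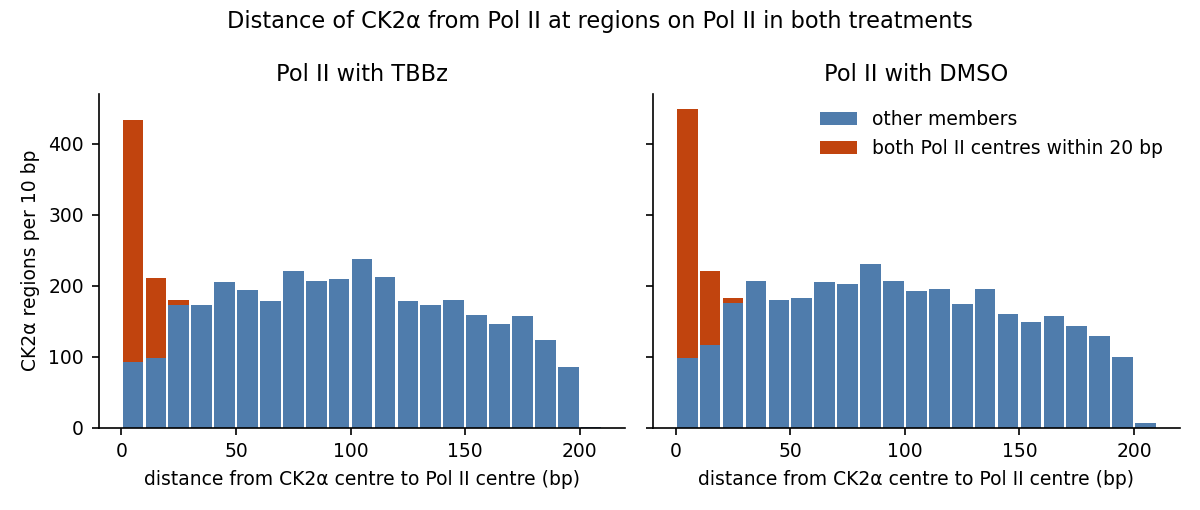
Number of members per 10 bp of distance between the CK2α centre and the Pol II centre, with TBBz (left) and with DMSO (right). Orange marks the 461 members with both Pol II centres within 20 bp; the lowest bin holds 433 members with TBBz and 448 with DMSO, and the following bins stay near 200 until about 150 bp.

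The limit of 20 bp itself holds the centres of coincident members close together. It also takes short distances out of the other members, so the differences between these groups follow at least in part from it. The median distance to CK2α was 4 bp with TBBz (interval 4 to 5 bp) and 4 bp with DMSO (3 to 5 bp), and the Pol II centres were a median of 3 bp apart. The other 3405 members had medians of 97 bp with TBBz (94 to 100 bp) and 95 bp with DMSO (92 to 97 bp), and their Pol II centres were 19 bp apart. These medians lie near the middle of the distances that the rule admits. CK2α regions went on past the limit at a similar number: the nearest TBBz centre was 150 to 199 bp away for 975 CK2α regions, 200 to 249 bp away for 898 and 250 to 299 bp away for 872, so no typical distance is read from the members.

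Coincident members also stood elsewhere in the lists. The place of a region in a deposited list was read as a rank of strength, which could not be tested on these files. Coincident members stood at a median of 28.1% of the CK2α list (24.4 to 33.0%), but at 56.6% of the Pol II list with TBBz (54.4 to 61.2%) and 51.1% of that with DMSO (46.2 to 56.4%). The other members stood at 39.5% of the CK2α list, 28.4% of the TBBz list and 30.1% of the DMSO list. Coincident members were therefore earlier in the CK2α list and later in both Pol II lists than the other members. The share of coincident members among all members was 3.52% in the first 10% of the TBBz list and 37.5% in its last 10%, and 7.45% and 22.7% at the same places of the DMSO list.

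Their position in the genome differed too. Of the coincident members, 41.4% (36.9 to 46.1%) were found no more than 1 Mb from a gap of 2 Mb or longer between regions of the lists (a region-free stretch), against 7.58% (6.71 to 8.52%) of the other members and 10.0% of the CK2α regions that are no members. Another member lay within 10 kb of 37.7% of the coincident members (33.3 to 42.3%) and of 8.08% of the other members (7.18 to 9.04%). Among the 449 members beside a region-free stretch, 191 were coincident, 42.5%, and among the 3417 elsewhere 270 were, 7.90%. Coincidence was thus found away from such stretches as well. No control library was used when the lists were made. Signal shared by all libraries for reasons other than binding thus cannot be told apart from binding, at the coincident members or at the others.

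Most members stood alone, and coincident members were frequent in the few windows that held many. Counted in windows of 100 kb, the 3866 members fell into 3126 windows; 2595 windows held 1 member, 407 held 2, 78 held 3 and 46 held at least 4. The share of coincident members was 7.86% in windows with 1 member, 11.3% with 2, 17.1% with 3 and 56.1% (49.3 to 62.7%) in windows with 4 or more. The 7 windows with 7 members or more held 56 members. The fullest was chr17:45200001-45300000, with 10 CK2α, 10 TBBz and 10 DMSO regions, and each of its CK2α regions was a member. Its members spread over 53596 bp, and their median distance to Pol II was 5 bp with TBBz and 7 bp with DMSO, with a highest value of 25 bp and 21 bp. It did not lie beside a region-free stretch.

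Single members of that window show the distances and places side by side. At chr17:45258865-45259065 the TBBz centre was 0 bp and the DMSO centre 7 bp from the CK2α centre, at place 3246 of the CK2α list, 15556 of the TBBz list and 13981 of the DMSO list. At chr17:45234274-45234474 the distances were 1 bp and 0 bp, at places 1178, 13203 and 9444 of the same lists. As percents of the lists these places are 24.3%, 62.8% and 64.1% for the first and 8.80%, 53.3% and 43.3% for the second. The order was the opposite at chr17:45221190-45221390, which stood at 92.1% of the CK2α list, 71.5% of the TBBz list and 73.7% of the DMSO list. These 3 members were chosen after their values were seen.

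The other full windows lay beside region-free stretches. They were chrY:13800001-13900000 with 9 members, chr2:92300001-92400000 and chr16:46400001-46500000 with 8 each, and chr2:92200001-92300000 with 7. Another 2 windows also held 7 members, chr10:42500001-42600000 and chrY:10000001-10100000. In chr2:92300001-92400000 all 8 CK2α regions were members and 7 were coincident. Its member chr2:92305665-92305865 stood at place 115 of the CK2α list, with the TBBz centre 1 bp away at place 11050 and the DMSO centre 5 bp away at place 2400. At chr2:92324101-92324301 and chr2:92300627-92300827 all 3 regions had the same start and end. The window on chromosome 16 was less uniform, with 4 coincident members of 8. At chr16:46403590-46403790 both Pol II centres lay at the same base, 33 bp from the CK2α centre, and at chr16:46404938-46405138 both lay 64 bp from it.

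**Figure D3:**
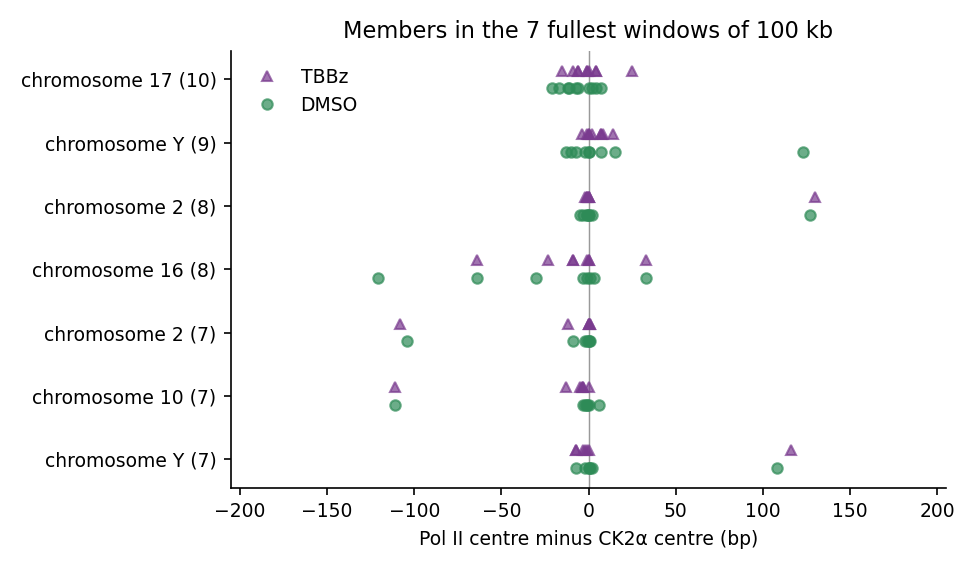
Position of the Pol II centre relative to the CK2α centre (bp) for the 56 members of the 7 windows of 100 kb with 7 or more members, with TBBz (triangles) and with DMSO (circles); the number of members stands in brackets. Most symbols lie within 20 bp of 0, and where a member lies away from 0 the TBBz and DMSO symbols mostly lie together.

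None of the 10 members that stood earliest in all 3 lists was coincident. The coincident share was 11.9% of all members and 19.8% of those in the first 10% of the CK2α list. It was 3.52% in the first 10% of the TBBz list and 7.45% in that of the DMSO list. As the 10 were picked for early places in all lists, nothing is read from their lack of coincidence. These 10 members, ranked by the latest of their places as a percent of its list, all stood within the first 1% of each list, and none lay beside a region-free stretch. The first was chr1:149223774-149223974, at place 10 of the CK2α list, 3 of the TBBz list and 1 of the DMSO list. Its Pol II centre lay 5 bp below the CK2α centre with TBBz and 70 bp above it with DMSO, so the Pol II centre differed by 75 bp between treatments. Next was chr21:9826038-9826238, which opens the CK2α list and stood at place 30 with TBBz and 3 with DMSO. Here Pol II lay 78 bp from CK2α with TBBz and 67 bp with DMSO, on the same side.

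Several of the other 8 had Pol II at one distance in both treatments. At chr11:62609041-62609241 Pol II lay 52 bp from CK2α with TBBz and 49 bp with DMSO, at places 11 and 8 of those lists. At chr1:156186299-156186499, the second CK2α region, the distances were 22 bp and 21 bp, at places 157 and 7. At chr1:91852874-91853074, the third CK2α region, they were 39 bp and 41 bp, at places 21 and 131. These 3 sites thus kept the Pol II centre within 3 bp.

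At others it stood apart. At chr17:41438393-41438593 Pol II was 25 bp from CK2α with TBBz and 135 bp with DMSO, and this Pol II site was at place 2 in both lists. At chr1:147735968-147736168 the distances were 117 bp with TBBz and 179 bp with DMSO, and at chr11:62432680-62432880 they were 76 bp and 31 bp. The remaining pair lay on chromosome 19. At chr19:18392169-18392369 the Pol II centre was 55 bp from CK2α with TBBz and 90 bp with DMSO, and at chr19:1592165-1592365 it was 24 bp and 57 bp. Among these 10 members the Pol II centres of the treatments were between 1 and 110 bp apart.

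In a small number of members the Pol II regions of TBBz and DMSO did not touch each other. There were 75 of them, 1.94% (1.53 to 2.43%), and the CK2α region reached both. The largest distance between the Pol II centres was 376 bp, at chr12:94985878-94986078, where Pol II lay 180 bp above the CK2α centre with TBBz and 196 bp below it with DMSO. At chr6:36164649-36164849 it lay 177 bp above with TBBz and 196 bp below with DMSO, and at chr20:57607400-57607600 it lay 175 bp below with TBBz and 168 bp above with DMSO. The direction thus differed between these sites. The next were chr2:75874030-75874230, with Pol II centres 327 bp apart, and chr14:32670638-32670838, with 324 bp. The sites on chromosomes 6 and 20 stood in the first 20% of all lists (places 1413 and 1557 for CK2α, 4909 and 2176 with TBBz, 3047 and 1815 with DMSO), and that on chromosome 12 stood late, at place 13043, 18801 and 19543.

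Pol II centres of both treatments lay about as close to each other where CK2α stood 201 to 1000 bp away as at members. They lay somewhat farther apart where no CK2α centre was within 1 kb. Among Pol II pairs with centres up to 200 bp apart, the median distance was 16 bp at members (3791 pairs), 17 bp where the nearest CK2α centre was 201 to 1000 bp away (4377 pairs) and 23 bp where none was within 1 kb (7731 pairs). Place in the DMSO list moved with this value. In the first 20% of the DMSO list the medians were 15 bp at members and 14 bp without CK2α within 1 kb, and in the next 20% they were 15 bp and 16 bp. In the last 20% they were 19 bp (interval 16 to 30 bp) at members and 40 bp (36 to 44 bp) without CK2α. Without the coincident members the value in the last 20% was 36 bp (30 to 46 bp, 123 pairs), and in the 20% before it 36 bp (30 to 40 bp) against 30 bp (28 to 32 bp) without CK2α. The rule itself favours small distances, because both Pol II regions must reach the same CK2α region.

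Members stood earlier in the CK2α list than the other CK2α regions. In its first 10%, 625 of 1338 CK2α regions were members, 46.7% (44.0 to 49.4%), and in its last 10% 235 of 1339 were, 17.6% (15.5 to 19.7%). In between, the share was lower in each 10% of the list than in the one before it. Members stood at a median of 38.3% of the CK2α list, those on Pol II with TBBz only at 49.7%, those on Pol II with DMSO only at 40.8% and those on neither at 57.7%. The median distance to Pol II varied less. Leaving out coincident members, it was 83 bp with TBBz and 77 bp with DMSO in the first 10% of the CK2α list and 102 bp and 95 bp in the last 10%.

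**Figure D4:**
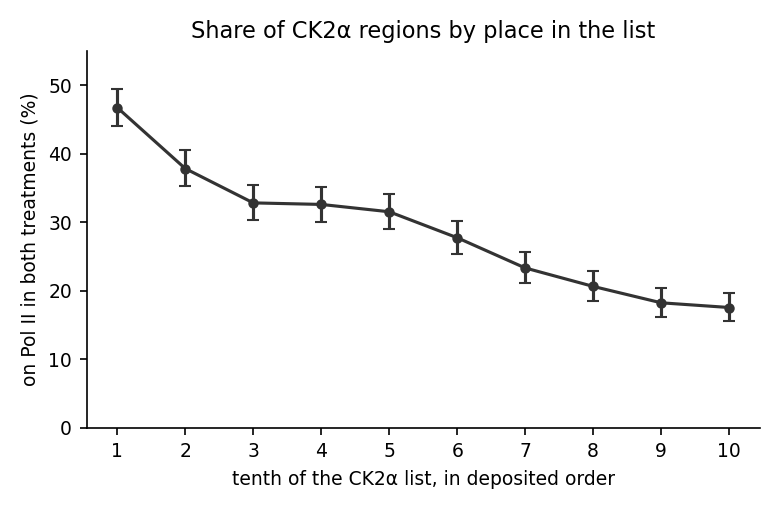
Share of CK2α regions on Pol II in both treatments (%) in each 10% of the CK2α list in deposited order, with exact 95% binomial intervals. It is 46.7% in the first 10% and 17.6% in the last 10%.

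Members were also less frequent late in the Pol II lists. They made up 25.2 of every 100 Pol II regions in the first 10% of the TBBz list, 27.2 in the next 10% and 2.58 in the last 10%. In the DMSO list the values at the same places were 29.5, 27.4 and 3.02. The rule needs Pol II in both lists, and sharing over all Pol II regions fell along them too. It was 90.0% in the first 10% of the TBBz list and 20.6% in its last 10%, and 92.4% and 35.7% for the DMSO list. No member overlapped more than 1 region of a list, and no Pol II region served more than 1 member. The width of 201 bp and the spacing of at least 500 bp within a list allow nothing else. Members accounted for 15.6% of the TBBz list and 17.7% of the DMSO list.

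CK2α regions on Pol II in one treatment were mostly on Pol II in the other. Of the 4816 CK2α regions on Pol II with TBBz (36.0% of the CK2α list), 80.3% (79.1 to 81.4%) were also on Pol II with DMSO; of the 4929 on Pol II with DMSO (36.8% of the list), 78.4% (77.3 to 79.6%) were also on Pol II with TBBz. Over all Pol II regions, 65.0% of the TBBz list overlapped the DMSO list and 73.8% of the DMSO list overlapped the TBBz list. Since the rule used these overlaps, nothing is read from them about the members.

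In the last 50% of each list, Pol II regions within 20 bp of CK2α were shared between treatments more often than those farther off. These shares rest on the overlaps that the rule used, so they too are descriptions. In the last 50% of the TBBz list, Pol II regions with a CK2α centre within 20 bp were also in the DMSO list in 81.5% of 444 cases (77.6 to 85.0%), those with CK2α at 21 to 100 bp in 69.9% and those at 101 to 200 bp in 67.0% (62.4 to 71.3%). Pol II regions of that part without CK2α overlap were found in the DMSO list in 43.9% of cases. In the last 50% of the DMSO list the shares also in the TBBz list were 74.0% of 419 cases (69.5 to 78.1%) within 20 bp, 62.0% at 21 to 100 bp and 63.0% at 101 to 200 bp, against 58.4% without CK2α overlap. In the first 50% of the lists the shares lay between 87.7% and 93.2% with CK2α, against 80.5% without it for TBBz and 87.8% for DMSO. The Pol II regions within 20 bp of CK2α include those of the coincident members. CK2α also stood more on the earlier regions within each last 50%. In the TBBz list, 439 CK2α regions lay on the 10% just after the middle and 152 on the last 10%. There, 71.2% and 20.6% of all Pol II regions were also in the DMSO list. Of the CK2α regions on these parts, 79.7% and 42.1% also overlapped Pol II with DMSO, higher values at the same places. For the DMSO list the counts were 484 and 178, and the shares of all Pol II regions also in the TBBz list 81.9% and 35.7%. Of those CK2α regions, 75.4% and 37.1% also overlapped Pol II with TBBz, a lower value just after the middle and a similar one at the end. What part coincident members and place had in the differences was not tested.

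CK2α regions that overlapped Pol II in 1 treatment mostly had Pol II of the other treatment within 1 kb, as did those that overlapped it in neither. With Pol II in the TBBz list only, the nearest DMSO centre was a median of 427.5 bp from CK2α, and 73.1% had one within 1 kb. With Pol II in the DMSO list only, the nearest TBBz centre was a median of 502 bp away, and 63.4% had one within 1 kb. For CK2α regions that overlapped neither list the shares within 1 kb were 64.2% for TBBz and 64.7% for DMSO. At the boundary, 146 members shared 10 bp or less with at least 1 of their Pol II regions, and 148 CK2α regions failed to be members with fewer than 10 bases between them and the Pol II region they missed. At chr1:86861781-86861981 the overlap was 1 bp with TBBz and 182 bp with DMSO. At chr4:69215432-69215632 it was 11 bp with TBBz and 1 bp with DMSO, and chr6:107349580-107349780, chr6:170124260-170124460 and chr10:17429990-17430190 also shared 1 bp with DMSO. Just outside, chr1:193074596-193074796 shared 183 bp with TBBz Pol II and began right after the end of DMSO Pol II, with 0 bases between. The other 4 just outside were chr8:29940232-29940432, chr10:123753884-123754084, chr11:120894963-120895163 and chr12:57399950-57400150, all with 0 bases between CK2α and one Pol II region.

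Around the members the lists mostly held no further Pol II region. A further Pol II region of either list stood within 2 kb of 966 members, 25.0% (23.6 to 26.4%). A further TBBz region stood there in 21.9% of members (20.6 to 23.2%) and in 27.5% of CK2α regions on TBBz Pol II only (24.7 to 30.4%). A further DMSO region stood there in 19.1% of members (17.9 to 20.4%) and in 26.9% of those on DMSO Pol II only (24.3 to 29.7%). Another CK2α region lay within 2 kb of 17.4% of members, against 22.2% of the CK2α regions that are no members. The lists hold no regions of one library closer than 500 bp, per the file headers. They also leave out candidates not 4-fold above the surrounding 10000 bp, so Pol II near a member can be missing from them.

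CK2α stood between neighbouring Pol II regions about as often as outside them. Among members with 1 further Pol II region within 2 kb in the same list, the CK2α centre stood between the overlapping and the further region in 386 of 754 cases with TBBz, 51.2% (47.6 to 54.8%). With DMSO it did so in 314 of 673 cases, 46.7% (42.8 to 50.5%). Regions of one list stand at least 500 bp apart, which bears on where a further region can stand. The shares are thus given as description and are not set against 50%.

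Most members had no other member within 10 kb. The median distance from one member to the next on its chromosome was 240787 bp (222587 to 258031 bp, quartiles 63123 and 724173 bp), and the smallest was 529 bp. Another member lay within 10 kb of 11.6% of members (10.6 to 12.7%), and a member lay within 10 kb of 9.52% of the CK2α regions that are no members (8.94 to 10.1%). The share was 6.78% without coincident members and 5.57% in the first 50% of each list, both of which leave fewer members that could be neighbours.

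The share of CK2α regions that were members differed between chromosomes and was highest on chromosome Y. It lay between 23.0% on chromosome 8 (19.5 to 26.8%) and 36.0% on chromosome 19 (32.7 to 39.4%) for the autosomes, and was 28.4% on chromosome X. On chromosome Y 38 of 58 CK2α regions were members, 65.5% (51.9 to 77.5%), and 23 of the 38 were coincident. Among autosomes the coincident share of members was lowest on chromosome 15, at 4.17%, and highest on chromosome 8, at 17.9%; on chromosome 19 it was 5.80%. Leaving out coincident members, the share of members was 42.9% on chromosome Y, 34.6% on chromosome 19 and 19.7% on chromosome 8. The value for chromosome Y rests on 15 members, and 35 of all 38 members there lay beside a region-free stretch.

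**Figure D5:**
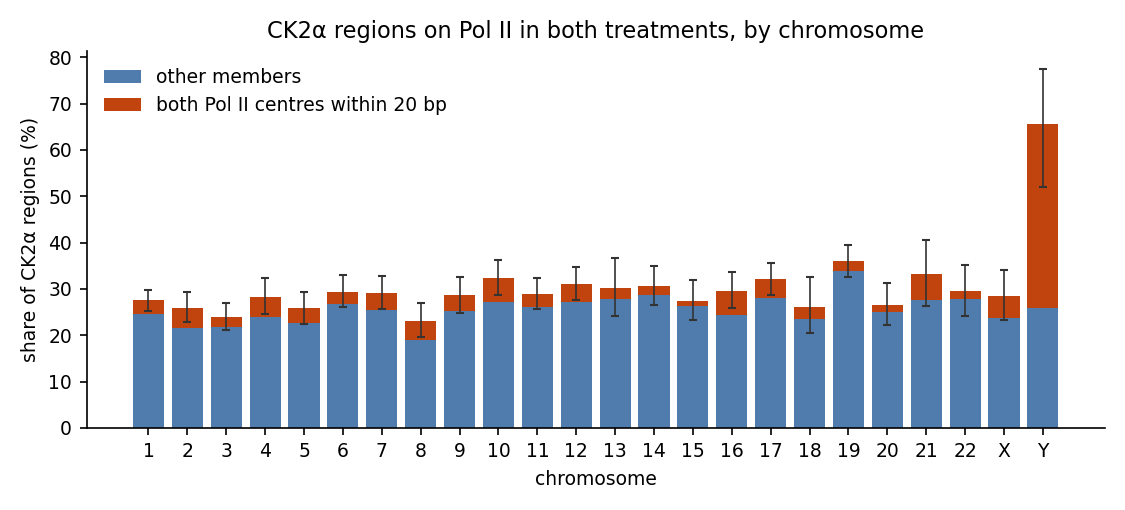
Share of the CK2α regions of each chromosome that are on Pol II in both treatments (%), with members that have both Pol II centres within 20 bp in orange and the other members in blue; bars on top are exact 95% binomial intervals of the sum. Chromosome Y stands above the rest at 65.5%, with most of its members coincident, and chromosome 19 is the highest autosome at 36.0%.

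The number of members followed the number of protein-coding genes on a chromosome (RefSeq genes of the assembly GRCh38.p14, whose coordinates were not used), over 24 chromosomes: Pearson's r was 0.947 and rho (Spearman) 0.928. The coefficients were 0.681 and 0.568 for the coincident members alone and 0.942 and 0.913 for the others. Larger chromosomes hold more of everything, so these describe and carry no p. Per 100 protein-coding genes, the autosomes held between 15.4 members, on chromosome 11, and 26.4, on chromosome 10. Chromosome X held 9.43 and chromosome Y 60.3. The whole CK2α list varied too. It held 692 regions on chromosome 11 (1301 genes) and 600 on chromosome 10 (734 genes). On chromosome X it held 282 (848 genes) and on chromosome Y 58 (63 genes). No trait of the members is thus read from the values per gene. Without coincident members the value on chromosome Y was 23.8, from 15 members, and was still the highest. The highest autosome was then chromosome 14, at 23.0.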

How the data were processed

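Per the file headers, the authors called regions in each of the 3 libraries separately with HOMER, using its factor style with centring, 200 bp peaks at least 500 bp apart, a false discovery rate of 0.001 and no control library in the command. Candidates not 4-fold above the surrounding 10000 bp were removed: 42856 of 56238 for CK2α, 13517 of 38299 for Pol II with TBBz and 25346 of 47165 with DMSO. Sites within broad Pol II signal can thus be missing. The submitters' processing notes name Bowtie, HOMER and hg19; which versions was not given in the sources used here. The authors' deposited score is 1 for every region and ranks nothing, so the place in the list was used instead.

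Starts, deposited counting from 0, were raised by 1. Overlap meant at least 1 bp. The overlap of each CK2α region with its Pol II region, the signed distance between centres, neighbours within 2 kb and 10 kb, and counts per 100 kb were computed with Python 3.11.15 (SciPy 1.17.1, pandas 2.3.3, NumPy 2.4.6; figures with Matplotlib 3.10.9), and the code was tested on simulated data. Intervals are Clopper-Pearson for shares. No test was run, since each group has 1 library.

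The members, gene lists and rules were chosen with earlier results of these data known. Named regions are the 10 members earliest in all lists (by the latest of their 3 places), the 5 with the Pol II centres farthest apart, the 5 fullest windows, and the 5 regions just inside and just outside the overlap limit; members named within windows, the other 2 windows with 7 members and the 20 bp class were chosen after their values were seen. Comparisons with start sites, gene lists and sequence content, which need a genome or annotation of hg19, were planned and were not made here.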

Additional observations from a re-analysis of the deposited data

How the results depend on the processing

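The number of members was 1925 with an overlap of 50% of the width, 1885 in the first 50% of each list and 8043 with centres within 500 bp. By construction these widen or narrow the rule. The share of CK2α regions on DMSO Pol II that were also on TBBz Pol II was 67.2% with the overlap of 50%, 76.7% with the TBBz list shortened to the length of the DMSO list and 76.2% without coincident members. The median distance of CK2α from Pol II with TBBz was 41 bp, and with DMSO 39 bp, with the overlap of 50%, which admits only short distances; it was 94 and 91 bp in the first 50% of each list, 92 and 88 bp without regions beside region-free stretches and 97 and 95 bp without coincident members. The distance between the Pol II centres was 13 bp with the overlap of 50% and 19 bp without coincident members. A further Pol II region within 2 kb was found for 22.0% in the first 50% of each list and 23.4% without regions beside region-free stretches. Another member within 10 kb was found for 5.57%, 8.46% and 6.78% in the first 50% of each list, without regions beside stretches and without coincident members. Apart from what construction explains, the cause was not tested. All other settings run stayed within the counting interval, or within 1.5 times for the number. Leaving out coincident members was added after the data were seen. Start sites, with their distance and gene set alternatives, were not run. No paired analysis was possible because there is 1 library for each antibody and treatment. The files hold no tags to subsample, and how depth limits the late part of the lists was not tested.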

Other observations

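Not all full windows were made of coincident members. Of the 46 windows of 100 kb with 4 members or more, most members were coincident in 25, and none was in 14, each with 4 members. These windows were looked up after their values were seen. In chr11:62400001-62500000 the 4 members stood between places 35 and 904 of the CK2α list, 50 and 3825 of the TBBz list and 18 and 4505 of the DMSO list, with a median distance from CK2α to Pol II of 79 bp with TBBz and 61.5 bp with DMSO. In chr1:149800001-149900000 the 4 members had medians of 35 bp with TBBz and 74 bp with DMSO. In chr16:2500001-2600000 all 4 lay within 24220 bp, at median distances of 125 bp with TBBz and 97.5 bp with DMSO.

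In the window with 10 members on chromosome 17 the places in the CK2α list ran from 1178 to 12325, against 6759 to 17720 in the TBBz list and 6996 to 16076 in the DMSO list. In chr17:41400001-41500000, which holds 4 members and none coincident, they ran from 54 to 6226 for CK2α, 2 to 8586 with TBBz and 2 to 2453 with DMSO.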
